A study of Homo sapiens with 9 samples.

Results

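The comparison was between A549 cells transfected with a non-targeting siRNA (NS siRNA) and A549 cells that received the transfection reagent without RNA (mock). It rests on 6 of the 9 arrays in the series, 3 biological replicates per group, chosen by their titles (A549_NS siRNA and A549_Mock). The other 3 arrays came from cells given an siRNA against Nrf2 (gene symbol NFE2L2), and they enter here only in the shared estimate of the spread and as values set beside those of the 2 groups. A549 is an established human lung adenocarcinoma line, grown here in high-glucose DMEM with serum. Cells in 10 cm dishes were transfected with Lipofectamine 2000 and harvested after 96 h; each siRNA was used at 25 nM. The series holds 1 cell line and 1 non-targeting siRNA, and mock cells received no RNA, so an effect of any RNA in the complex and an effect of this siRNA's own sequence cannot be told apart. That sequence was not used here. The labels do not say whether the replicates were separate cultures or days, so the p-values measure the spread between these samples, which may be technical.

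An siRNA is a short RNA duplex, and a single strand of it is loaded into an Argonaute protein and guides the protein to transcripts it pairs with. A non-targeting siRNA is chosen to match no transcript in full, but the seed near the 5′ end of its guide strand can still pair with unintended transcripts, much as a microRNA does. Double-stranded RNA is also read by innate sensors such as PKR, RIG-I, MDA5 and the OAS enzymes, whose known outputs include interferon, NF-kB signalling and arrest of translation. Setting a non-targeting siRNA against reagent alone shows what such a control changes.

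Arrays of the same group were close. Over all probe sets the correlation was 0.9983 to 0.9987 within groups and 0.9924 to 0.9937 between NS siRNA and mock arrays; this is a description across probe sets. The median SD between replicates was 0.0545 in mock and 0.056 in NS siRNA (log2, n = 3), and having 3 arrays per group limits what can be resolved. The 3′ to 5′ ratio of ACTB, a sign of RNA integrity, ran from -0.097 to -0.066 in mock and from -0.082 to -0.061 in NS siRNA (log2), and the groups overlapped. The 10 markers listed for A549, epithelial genes among them but also vimentin, averaged 12.28 to 12.33 on the mock arrays and 12.51 to 12.53 on the NS siRNA arrays. Immune markers averaged 7.21 to 7.29 and 7.28 to 7.34, and endothelial markers 7.02 to 7.10 and 7.06 to 7.16, all below 7.54, the median over every probe set and array (called the array median from here on). NFE2L2, the target of the other siRNA, read 12.07, 11.92 and 11.98 in mock and 12.09, 12.03 and 12.15 in NS siRNA. The NS siRNA arrays thus did not show the knockdown seen with Nrf2 siRNA (10.12, 10.32 and 10.30), and the difference from mock did not pass (0.10 ± 0.06 SE, limma adjusted p = 0.248).

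The control siRNA was accompanied by many small differences and few large ones, and more of the large ones were falls than rises. Of 19775 genes, 6082 (30.8%) passed the threshold of an adjusted p below 0.05 (limma, Benjamini-Hochberg); 3083 were higher in NS siRNA (15.6%) and 2999 lower (15.2%). The 3 NS siRNA arrays lay outside the range of the 3 mock arrays in 43.4% of all genes, and in 30.3% they did so and the gene also passed. Of the called genes 87.8% differed by less than 1.5-fold, and the median called difference was 1.21-fold. A called difference of 2-fold or more was seen in 177 genes (0.895%), of which 134 were lower (0.678%) and 43 higher (0.217%). By the same fit and threshold 33% of genes differed between Nrf2 siRNA and mock and 47.6% between Nrf2 siRNA and NS siRNA. These comparisons share arrays with the one described here.

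The genes at 4-fold or more numbered 8: CEACAM6, PTX3 and RRAD rose, and SCD5, NPTX1, IGFBP7, TMEM45A and TMCO1 fell. The 134 genes that fell by 2-fold or more had a median mock level of 10.44, the 43 that rose one of 8.64, and all genes one of 8.34 (log2 levels). In each of the 177 the groups did not overlap, which choosing differences far above the usual spread between replicates makes likely. Several probe sets read 89 of the 134 falls; in 63 of them all probe sets had one sign, and in 9 at least 1 probe set was called in the opposite direction. Of the 43 rises 25 had several probe sets, with one sign in 23 and an opposite call in 0. RNA came from whole dishes, so fewer cells holding a transcript and less of it per cell cannot be told apart.

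**Figure D1:**
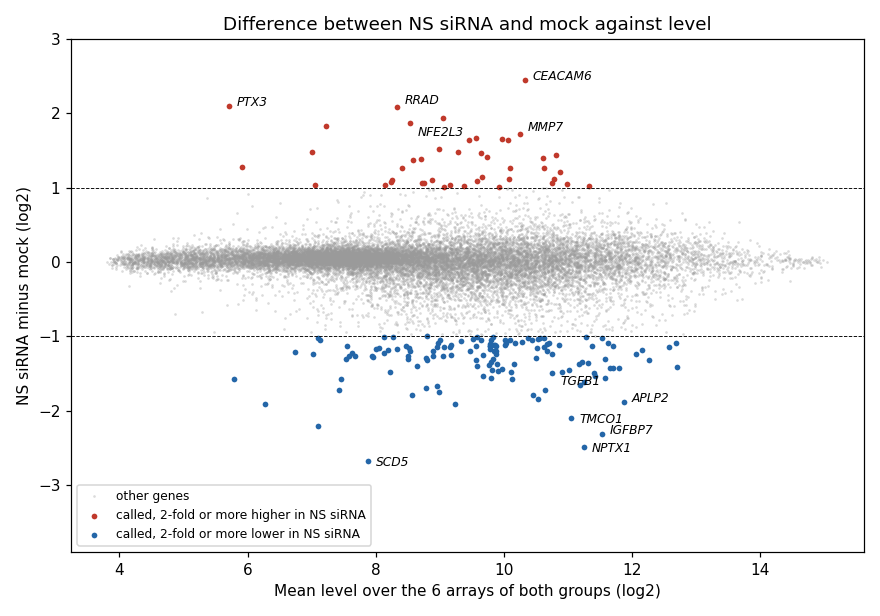
NS siRNA minus mock (log2, y axis) against the mean level over the 6 arrays (log2, x axis) for each of the 19775 genes, with dashed lines at 2-fold. Blue points, the 134 genes called 2-fold or more lower, outnumber the 43 red points called 2-fold or more higher.

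CEACAM6, SCD5 and TGFB1 were proposed for this comparison with earlier results of these data known, so their values describe it. CEACAM6, a cell-surface adhesion glycoprotein of the carcinoembryonic antigen family, read 9.25, 9.09 and 8.97 in mock and 11.49, 11.46 and 11.71 in NS siRNA (log2 levels, in replicate order here and below). All NS siRNA arrays lay above all mock arrays, with means of 9.11 ± 0.14 and 11.55 ± 0.14 (SD, n = 3) and a rise of 2.45 ± 0.08 SE, or 5.46-fold. Its other probe set rose as well (2.77). SCD5, a stearoyl-CoA desaturase that puts a double bond into saturated fatty acids, read 9.18, 9.25 and 9.23 in mock and 6.45, 6.71 and 6.47 in NS siRNA. The groups were far apart, a 6.41-fold fall (-2.68 ± 0.06 SE) that ended below the array median. The other 3 SCD5 probe sets, all dimmer in mock, gave -0.41 (passed), -0.02 (not passed) and 0.17 (passed, higher), and the mean over its probe sets was -0.74. TGFB1, the secreted ligand TGF-beta 1, read 11.44, 11.57 and 11.50 in mock and 9.98, 10.03 and 10.03 in NS siRNA, a 2.81-fold fall (-1.49 ± 0.05 SE) without overlap. Its dimmer probe set did not pass (-0.07), and the mean of the pair was -0.78.

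The Nrf2 siRNA arrays, given side by side because they share the mock arrays, held 11.10, 11.10 and 11.22 for CEACAM6, all above the mock arrays. They held 9.82, 9.84 and 9.77 for SCD5, above mock, and 11.18, 11.17 and 11.26 for TGFB1, below mock but above every NS siRNA array. These genes therefore lay at different places relative to mock after the other siRNA, which has its own target and sequence.

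The 15 largest rises began with CEACAM6 and went on with PTX3, a secreted pentraxin of innate immunity, at 4.77, 4.62 and 4.63 in mock and 6.61, 6.99 and 6.68 in NS siRNA (2.09 ± 0.09 SE, 4.26-fold). Both of its groups lay below the array median. From here on a lone number in brackets is NS siRNA minus mock (log2), and a count of probe sets gives those that passed in the same direction, of all the gene has. A probe set mean is the difference averaged over all of them, given where it is more than 1.5 times smaller than the value of the brightest. It is also given for TGFB2, where it is larger, and for SCD and RIGI, where it passed and the brightest did not. RRAD, a RAS-related GTPase, read 7.12, 7.37 and 7.36 against 9.42, 9.44 and 9.24 (2.08, probe set mean 1.38, 4.24-fold, 2 of 3 probe sets). COXFA4L3, a mitochondrial protein related to a respiratory chain subunit, read 7.98, 8.14 and 8.14 against 10.12, 10.01 and 9.92 (3.82-fold). Only called genes whose groups did not overlap could enter the 15 rises or the 15 falls. NFE2L3, a transcription factor of the same family as NRF2, read 7.47, 7.64 and 7.68 against 9.64, 9.44 and 9.31 (3.64-fold, 2 of 2 probe sets). GREM1, a secreted BMP antagonist, read 6.29, 6.21 and 6.42 against 8.17, 8.08 and 8.18 (3.56-fold). MMP7, a matrix protease, read 9.43, 9.47 and 9.28 against 11.11, 11.11 and 11.11 (3.29-fold).

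BCL2A1, an anti-apoptotic BCL2 relative, read 8.56, 8.79 and 8.82 in mock and 10.38, 10.48 and 10.30 in NS siRNA (1.66 ± 0.11 SE). IRAK2, a kinase of interleukin-1 and Toll-like receptor signalling, read 9.15, 9.17 and 9.10 against 10.83, 10.77 and 10.77 (1.65 ± 0.05 SE, probe set mean 0.72, 2 of 3 probe sets). FOSL1, a FOS-family subunit of AP-1, read 9.27, 9.35 and 9.08 against 10.95, 10.91 and 10.76 (1.64 ± 0.07 SE). The groups lay apart by more than 1 log2 unit in each of these genes. The rest of the 15 were ARHGAP29 (1.63, probe set mean 0.46, 1 of 4 probe sets), the transcriptional co-regulator CITED2 (1.52, probe set mean 0.99, 2 of 3 probe sets), the cell cycle regulator RGCC (1.48, probe set mean 0.58, 1 of 3 probe sets), the retinaldehyde dehydrogenase ALDH1A3 (1.48, probe set mean 0.81, 1 of 2 probe sets) and the transcription factor KLF4 (1.47).

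The 15 largest falls began with SCD5 and NPTX1, a neuronal pentraxin, which read 12.34, 12.58 and 12.54 in mock and 10.06, 9.93 and 10.00 in NS siRNA, a 5.61-fold fall (-2.49 ± 0.06 SE). IGFBP7, a secreted insulin-like growth factor binding protein, read 12.62, 12.64 and 12.80 against 10.51, 10.33 and 10.29 (4.97-fold, 3 of 3 probe sets). TMEM45A, a membrane protein, read 8.15, 8.29 and 8.16 against 6.35, 5.68 and 5.96 (4.61-fold). The NS siRNA arrays of TMEM45A were spread more widely than those of NPTX1 or IGFBP7. TMCO1, a calcium channel of the endoplasmic reticulum, read 12.07, 12.08 and 12.13 against 10.05, 10.02 and 9.92 (4.29-fold), and its other 3 probe sets gave -1.71, -1.79 and -1.80. APLP2, a relative of the amyloid precursor protein, read 12.80, 12.86 and 12.81 against 10.90, 10.91 and 10.98 (3.71-fold, 8 of 8 probe sets).

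The other falls of the 15 were the antisense RNA MSC-AS1 (-1.91), the focal adhesion protein TNS1 (-1.91, probe set mean -0.80, 4 of 5 probe sets), GLIPR1 (-1.85, 5 of 5 probe sets), the secreted serine protease HTRA1 (-1.79), the tubulin carboxypeptidase VASH2 (-1.79, probe set mean -0.86, 2 of 3 probe sets), MYOCD, a coactivator of serum response factor (-1.75), NCKAP5 (-1.72), the neurotrophin receptor NTRK3 (-1.72, 9 of 9 probe sets) and the non-coding RNA LINC01279 (-1.69). MSC-AS1 lay below the array median in both groups. The largest adjusted p among the 30 leading genes was 2.13e-07 (limma).

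After Nrf2 siRNA some of the leading genes read close to mock and others did not. PTX3 (4.81, 4.66 and 4.60), RRAD (7.62, 7.48 and 7.36), NFE2L3 (7.50, 7.66 and 7.49), GREM1 (6.31, 6.34 and 6.14), FOSL1 (9.16, 9.14 and 9.11), TMCO1 (12.19, 12.26 and 12.16) and NCKAP5 (7.99, 8.40 and 8.28) did not pass against mock. MMP7 (11.55, 11.60 and 11.71) and ALDH1A3 (9.88, 9.80 and 9.81) were higher there than in mock, as in NS siRNA. Among the leading falls, NPTX1 (11.51, 11.58 and 11.53) and MSC-AS1 (5.92, 5.93 and 5.95) lay below every mock array, as in NS siRNA. Others, such as HTRA1 (11.84, 11.78 and 11.76) and TMEM45A (8.75, 8.92 and 8.82), lay above every mock array. BCL2A1 lay below mock (mean 7.28 against 8.72), the opposite side from NS siRNA.

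**Figure D2:**
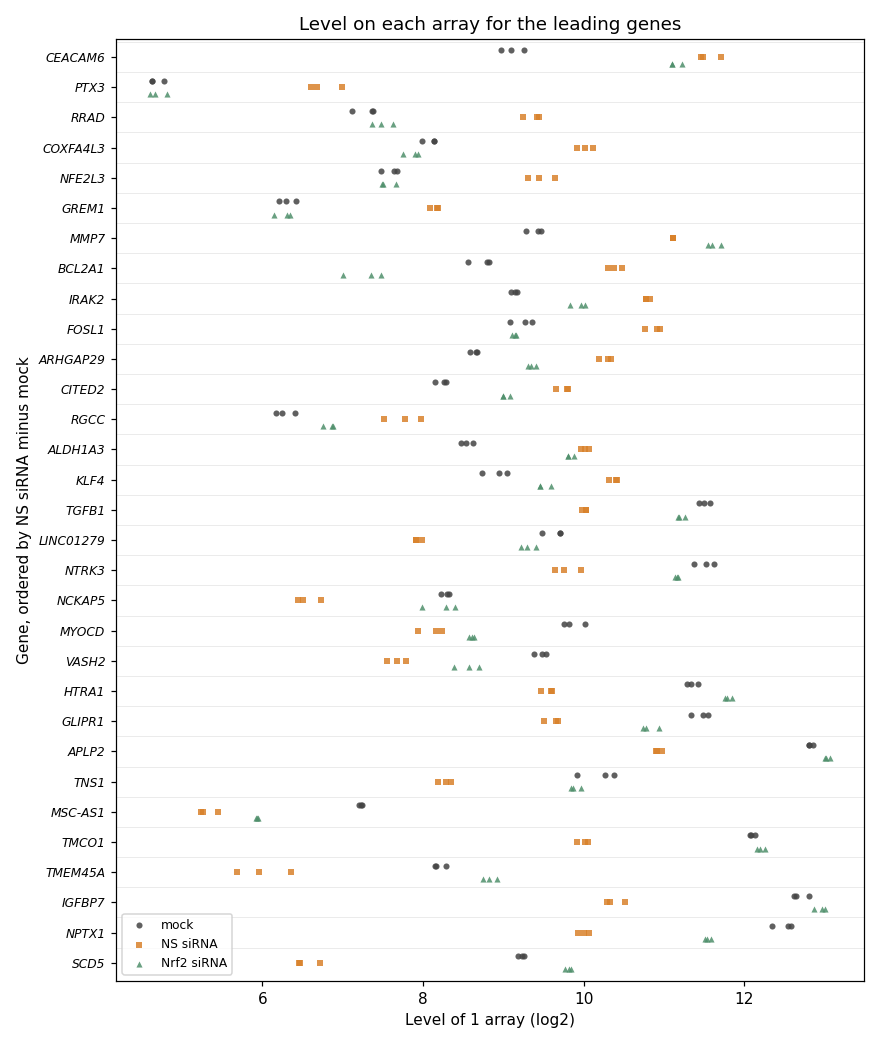
Level of each array (log2, x axis) for the 15 largest rises, TGFB1 and the 15 largest falls; circles are mock, squares NS siRNA and triangles Nrf2 siRNA. The rises and falls were picked among genes whose 3 squares lie outside the range of the 3 circles, and those of TGFB1 do so too. The triangles lie near the circles for PTX3 and TMCO1 and near the squares for CEACAM6.

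TGF-beta is secreted in a latent complex with LTBP proteins, signals through type I and type II receptor kinases to SMAD2 and SMAD3, which act with SMAD4, and is restrained by SMAD6, SMAD7 and the SMURF ubiquitin ligases. Of 29 measured ligands, receptors, latency proteins and SMADs, 9 rose and 10 fell. Their median difference was -0.032 against 0.031 over all genes. Here and for every list below, the shares over all genes were 15.6% higher and 15.2% lower. In either direction 41% of genes above the array median in both groups passed, against 8.63% of those below it in both. Among the ligands TGFB1 fell, TGFB2 rose (0.22, probe set mean 0.56) and TGFB3 (0.03) did not pass. INHBB, an activin subunit, read 7.98, 7.79 and 7.54 in mock and 9.06, 8.97 and 9.06 in NS siRNA (1.26 ± 0.09 SE), without overlap. TGFBR1, the type I receptor, read 12.30, 12.31 and 12.49 against 10.94, 10.87 and 11.02 (-1.43 ± 0.07 SE, probe set mean -0.95, 2 of 3 probe sets). TGFBR2, the type II receptor, read 11.82, 11.81 and 11.78 against 10.95, 11.03 and 10.88 (-0.85 ± 0.05 SE). The ligand TGFB1 and both receptors were lower on every NS siRNA array than on any mock array. TGFBR3, a co-receptor, rose (0.51). The latency proteins LTBP3 (-0.96, probe set mean -0.48), LTBP1 (-0.52) and LTBP2 (-0.52) fell, and THBS1, which can release TGF-beta from latency, rose (0.54, probe set mean 0.27). SMAD2 fell (-0.52, 6 of 6 probe sets) and SMAD3 rose (0.31, 4 of 4 probe sets). SMAD4 (-0.26, probe set mean -0.12, 1 of 5 probe sets) and the inhibitory SMAD6 (-0.46, probe set mean -0.16, 1 of 4 probe sets) fell, SMAD7 (-0.16) did not pass, and the ubiquitin ligase SMURF2 rose (0.82, 4 of 4 probe sets).

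Of 27 measured TGF-beta target genes 16 fell and 6 rose (median -0.258). These counts do not separate targets that TGF-beta induces from those it represses. SPARC, a matrix glycoprotein, read 10.77, 11.07 and 11.04 in mock and 9.98, 9.96 and 9.79 in NS siRNA (-1.05 ± 0.08 SE). The actin-binding protein TAGLN (-0.71), the feedback inhibitor PMEPA1 (-0.59), the transcription factor BHLHE40 (-0.52) and the ID proteins ID2 (-0.43) and ID1 (-0.39) also fell. MMP2, a gelatinase, fell on the brightest probe set (-1.29, 1 of 3 probe sets), and the mean of its probe sets was -0.40. COL1A1, a chain of type I collagen, fell (-0.94, 2 of 5 probe sets) with 1 probe set called higher and a mean of -0.38. CCN1 (0.95) and CCN2 (0.23), matricellular proteins, and BAMBI, a pseudoreceptor (0.52), rose, and fibronectin FN1 (-0.04) did not pass.

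Matrix genes overlap with these targets. Of 22 collagens and matrix proteins 8 fell and 2 rose (median -0.007), among them COL3A1 (-0.74, probe set mean -0.37), LUM (-0.70, probe set mean -0.36) and COL4A2 (-0.35). COL1A1, COL3A1 and LUM were also the 3 of 10 fibroblast markers that fell, and 0 rose; that list averaged 7.58 to 7.69 in mock and 7.40 to 7.44 in NS siRNA, with 5 genes below the array median in both groups. Whether a few other cells had a part in the fall of matrix genes was not tested. Of 20 matrix proteases, their inhibitors and plasminogen genes 8 fell and 6 rose (median 0.05). TIMP2, an inhibitor of matrix proteases, read 13.00, 13.31 and 13.13 against 12.04, 12.03 and 11.95 (-1.14 ± 0.07 SE, 3 of 3 probe sets). PLAU, the urokinase, rose (0.87, 2 of 2 probe sets) along with MMP7.

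NF-kB dimers are held in the cytoplasm by IkB proteins and, once released, induce cytokine genes together with genes of their own inhibitors. Of 25 measured subunits and targets 15 rose and 0 fell, against 15.6% and 15.2% of all genes, with a median of 0.21. In both groups 3 of the 25 lay below the array median, and 41% of genes above it in both passed in either direction. All 25 differences were above 0. With equal array medians, which lowered the median of all genes to 0.007, 10 rose and 0 fell. Beside BCL2A1, the neutrophil chemokine CXCL8 read 9.63, 9.74 and 9.75 in mock and 10.60, 10.55 and 10.33 in NS siRNA (0.79 ± 0.11 SE). NFKB2, the precursor of p52, read 9.88, 9.83 and 9.70 against 10.53, 10.57 and 10.60 (0.76 ± 0.07 SE, 2 of 3 probe sets). Neither gene's groups overlapped. NFKBIE, an IkB protein (0.55), and the adaptor TRAF1 (0.52) rose as well. The members that follow were chosen after their values were seen: the deubiquitinase TNFAIP3, or A20, read 9.42, 9.43 and 9.38 against 9.99, 10.07 and 9.89 (0.58 ± 0.07 SE), and NFKBIA, or IkB alpha, read 12.09, 12.03 and 11.93 against 12.38, 12.49 and 12.19 (0.34 ± 0.08 SE). RELA rose (0.13), and TNF (0.06) and IL6 (0.13) did not pass.

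The promoters of CXCL8, TNFAIP3 and NFKBIA are shown because these NF-kB targets rose together. The windows run from 250 bases before to 50 after the transcription start in RefSeq on GRCh38.p14, and are given 5′ to 3′ on the gene's strand. Capitals mark matches on either strand to GGNNNTTCC, letters found in many NF-kB sites, and to TGANTCA, those of the AP-1 site. CXCL8 is at chr4:73740319-73740618 (plus strand), TNFAIP3 at chr6:137867009-137867308 (plus strand) and NFKBIA at chr14:35404700-35404999 (minus strand).
CXCL8: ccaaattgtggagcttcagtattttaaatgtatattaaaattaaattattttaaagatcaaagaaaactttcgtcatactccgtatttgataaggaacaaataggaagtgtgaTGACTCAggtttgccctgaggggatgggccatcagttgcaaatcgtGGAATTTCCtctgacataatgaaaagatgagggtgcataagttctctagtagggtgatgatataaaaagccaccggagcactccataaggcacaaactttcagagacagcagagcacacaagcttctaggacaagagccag
TNFAIP3: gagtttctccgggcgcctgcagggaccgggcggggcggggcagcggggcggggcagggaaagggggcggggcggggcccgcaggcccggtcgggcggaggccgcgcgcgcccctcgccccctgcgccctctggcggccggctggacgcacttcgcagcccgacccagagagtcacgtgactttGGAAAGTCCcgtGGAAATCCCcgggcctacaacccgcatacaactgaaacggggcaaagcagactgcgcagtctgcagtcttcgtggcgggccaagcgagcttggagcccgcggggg
NFKBIA: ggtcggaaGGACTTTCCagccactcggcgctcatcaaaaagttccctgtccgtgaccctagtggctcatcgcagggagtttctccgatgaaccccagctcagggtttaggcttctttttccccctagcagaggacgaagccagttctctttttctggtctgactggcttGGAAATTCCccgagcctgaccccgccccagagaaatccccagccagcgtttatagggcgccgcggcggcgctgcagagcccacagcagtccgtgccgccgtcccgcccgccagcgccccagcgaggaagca
The CXCL8 window holds 1 match of each kind, with the AP-1 letters farther from the start, and TNFAIP3 and NFKBIA hold 2 matches to GGNNNTTCC each and 0 to TGANTCA. The window of BCL2A1, the list's largest rise, holds neither. Windows were found for 22 of the 25 measured list genes; 55.9% of their 34 windows hold GGNNNTTCC, against 20.1% of all 35116 windows. For TGANTCA the shares were 11.8% and 7.71%. The list was made of known NF-kB targets, so a share above that of all windows was likely from the start. Among the 18 windows of list genes that rose 61.1% hold GGNNNTTCC, near the share of the whole list. A match describes letters and not binding.

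Of 24 chemokines and interleukins 10 rose and 1 fell (median 0.132), among them the neutrophil chemokine CXCL5 (0.50, 3 of 3 probe sets), the cytokine IL32 (0.59) and CCL5 (0.35). The rises numbered 6 with equal array medians and also 6 without mock replicate 3, without NS siRNA replicate 1 or without NS siRNA replicate 3.

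**Figure D3:**
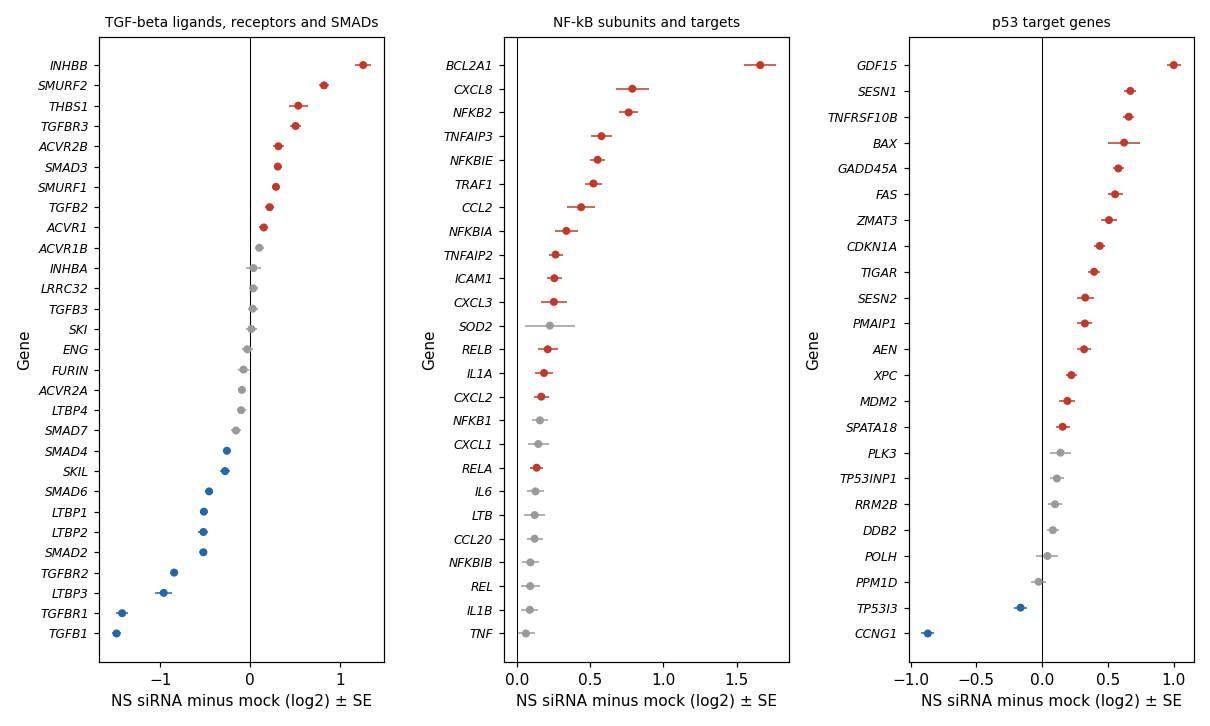
NS siRNA minus mock (log2, x axis) with its SE for every measured member of the TGF-beta, NF-kB and p53 lists; red was called higher, blue called lower and grey did not pass. TGFB1 and TGFBR1 are the lowest of a list split in direction, all 25 NF-kB genes lie right of 0, and CCNG1 is the lowest p53 target.

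The tumour suppressor p53 is stabilised by DNA damage and other stress and induces genes of cell cycle arrest and cell death. Of 23 measured targets 15 rose and 2 fell (median 0.318). GDF15, a secreted stress cytokine, read 10.20, 10.23 and 10.06 in mock and 11.19, 11.14 and 11.16 in NS siRNA (1.00 ± 0.05 SE, probe set mean 0.43, 1 of 3 probe sets). TNFRSF10B, a TRAIL death receptor, read 11.58, 11.58 and 11.59 against 12.25, 12.24 and 12.23 (0.66 ± 0.04 SE). CDKN1A, the CDK inhibitor p21, read 11.65, 11.74 and 11.65 against 12.11, 12.10 and 12.13 (0.44 ± 0.04 SE). In all 3 the NS siRNA arrays lay above the mock arrays. The stress sensor SESN1 (0.67), the death effector BAX (0.62), GADD45A (0.58), the death receptor FAS (0.55, 5 of 5 probe sets), ZMAT3 (0.51, 5 of 5 probe sets) and MDM2, the ligase that degrades p53 (0.19, 3 of 10 probe sets), rose too. CCNG1, cyclin G1, read 12.26, 12.26 and 12.26 against 11.45, 11.41 and 11.32 (-0.87 ± 0.05 SE), the opposite direction, and TP53I3 fell slightly (-0.16).

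Of 19 G1 cyclins, kinases and inhibitors 7 rose and 1 fell (median 0.057), with cyclin E2, CCNE2, at 0.69, cyclin D1, CCND1, at 0.26 and the inhibitor CDKN1B at -0.27. Of 28 mitosis genes 8 rose and 6 fell (median 0.055): the anaphase factors UBE2C (0.36) and CDC20 (0.32) rose, and the kinases PLK1 (-0.37) and AURKA (-0.36) fell. With quantile normalization 13 of the mitosis genes rose. Of 29 DNA replication and nucleotide genes 6 rose and 5 fell (median 0.049), with the ribonucleotide reductase subunit RRM2 at 0.28 and thymidine kinase TK1 at -0.27. That split was 3 and 3 without NS siRNA replicate 2, 3 and 5 without mock replicate 3, 5 and 3 without mock replicate 1, and 10 and 4 with quantile normalization.

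Interferon-stimulated genes are the usual readout of double-stranded RNA sensing. Of 38 measured, 4 rose and 13 fell, against 15.6% and 15.2% of all genes, the median was -0.001, and 17 lay below the array median in both groups. GBP1, a guanylate-binding protein, read 7.38, 7.86 and 7.72 in mock and 6.78, 6.73 and 6.30 in NS siRNA (-1.05 ± 0.14 SE, probe set mean -0.60). OAS1, an enzyme that activates RNase L when it binds double-stranded RNA, read 9.21, 9.15 and 9.19 against 8.40, 8.46 and 8.44 (-0.75 ± 0.05 SE). Both were lower on all NS siRNA arrays. The ubiquitin ligase DTX3L also fell (-0.52). IRF1, a transcription factor (0.38), the exonuclease ISG20 (0.34), IFIT2 (0.25) and IFIT3 (0.24) rose. Interferon beta, IFNB1 (-0.02), ISG15 (0.07) and MX1 (0.15) did not pass. The falls were not stable in number: they came to 7 without mock replicate 1, 8 without mock replicate 2 and 7 without NS siRNA replicate 2.

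Of 24 RNA and DNA sensors and adaptors 6 rose and 5 fell, against 15.6% and 15.2% of all genes (median 0.105). IFI16, a DNA sensor, read 9.22, 9.32 and 9.34 in mock and 8.37, 8.36 and 8.15 in NS siRNA (2-fold lower, 3 of 3 probe sets). EIF2AK2, the kinase PKR, read 11.09, 11.09 and 11.10 against 10.56, 10.50 and 10.55 (-0.56 ± 0.04 SE, 3 of 3 probe sets). The adaptors MYD88 (-0.49) and MAVS (-0.29) fell, whereas the transcription factor IRF7 (0.43), the RNA sensor IFIH1, or MDA5 (0.31, probe set mean 0.14, below the array median), and the adaptor STING1 (0.25, probe set mean 0.16) rose. RIGI (0.17) and TLR3 (-0.13) did not pass, though the probe set mean of RIGI did (0.15).

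Of 21 genes of the RNA interference machinery, which carries the siRNA itself, 4 rose and 7 fell, against 15.6% and 15.2% of all genes. MOV10, an RNA helicase associated with Argonaute, read 8.90, 8.98 and 8.86 in mock and 7.70, 7.74 and 7.79 in NS siRNA (-1.17 ± 0.05 SE, 2 of 2 probe sets). After Nrf2 siRNA MOV10 read 8.97, 8.94 and 9.01. AGO2, the Argonaute that cleaves its targets, read 9.39, 9.44 and 9.22 against 9.82, 9.68 and 9.71 (0.39 ± 0.07 SE). Neither MOV10 nor AGO2 overlapped between NS siRNA and mock. DICER1 (0.27, probe set mean 0.14, 1 of 6 probe sets) and EIF4E2, a cap-binding translational repressor (0.35, probe set mean 0.18), rose. TNRC6B, the silencing partner of Argonaute (-0.37, 6 of 7 probe sets), the editing enzyme ADAR (-0.35), the microRNA processor DROSHA (-0.29) and the DICER1 partner PRKRA (-0.26, probe set mean -0.16, which did not pass) fell. AGO1 (-0.12), AGO3 (-0.11) and AGO4 (0.13) did not pass.

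Of 16 AP-1 and early response genes 10 rose and 4 fell (median 0.201). FOSL1 and KLF4 were the largest, followed by the stress factor ATF3 (0.93, probe set mean 0.47, 3 of 3 probe sets); DUSP1, a MAP kinase phosphatase (-0.67, probe set mean -0.39), and JUNB (-0.35) fell. Of 17 EGF receptor family genes 7 rose and 4 fell (median 0.114). The ligand HBEGF read 8.48, 8.18 and 8.29 in mock and 9.52, 9.36 and 9.37 in NS siRNA (1.10 ± 0.07 SE, probe set mean 0.50). The ligands TGFA (0.97, probe set mean 0.51), EREG (0.70, probe set mean 0.40) and NRG1 (0.59, probe set mean 0.30) and the feedback inhibitors ERRFI1 (0.62) and SPRY2 (0.53) rose too. EGFR itself read 10.17, 10.17 and 10.17 against 9.08, 9.19 and 9.09 (-1.05 ± 0.05 SE). Its probe sets differed: 4 of 9 probe sets were called lower and 1 was called higher, and their mean was -0.29. The receptor ERBB2 fell (-0.22).

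Of 23 epithelial junction and adhesion genes 8 rose and 3 fell (median 0.103). CLDN1, a tight junction claudin, read 10.28, 10.21 and 10.17 in mock and 11.34, 11.29 and 11.23 in NS siRNA (1.06 ± 0.05 SE). EPCAM (0.72), desmocollin DSC2 (0.57) and E-cadherin, CDH1 (0.46), rose, and the surface protein CD24 (-0.51, 6 of 6 probe sets), CLDN2 (-0.47) and desmoplakin, DSP (-0.25), fell. Of 14 keratins, the intermediate filaments of epithelia, 4 rose and 0 fell (median 0.085): KRT80 (1.11), KRT19 (0.80, probe set mean 0.49, 1 of 2 probe sets), KRT4 (0.61, 1 of 2 probe sets) and KRT8 (0.15). The 10 A549 markers hold KRT19, EPCAM, CDH1 and KRT8 again and also vimentin, VIM, which is counted below as a mesenchymal marker. These 5 genes rose, and 0 of the 10 fell. These rises numbered 3 without mock replicate 3, without NS siRNA replicate 2 or with equal array medians.

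Of 16 mesenchymal regulators and markers 7 fell and 2 rose (median -0.007). Besides MMP2, the transcription factors SNAI1 (-0.74), TCF4 (-0.70, probe set mean -0.42, 6 of 8 probe sets), TWIST2 (-0.42) and ZEB1 (-0.35, probe set mean -0.22, 3 of 4 probe sets) and N-cadherin, CDH2 (-0.28), fell. Vimentin, VIM (0.15), and the receptor kinase AXL (0.31) rose, and SNAI2 (0.06) did not pass. Of 17 integrin and laminin chains 5 rose and 5 fell (median -0.014); the collagen receptor chain ITGA2 (0.66) and the laminin chain LAMB3 (0.50) rose, as did ITGB8, which activates latent TGF-beta (1.27, probe set mean 0.28, 2 of 5 probe sets, below the array median).

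Of 9 measured CEACAM genes CEACAM6 and CEACAM21 (0.25) rose and CEACAM19 (-0.15) fell. CEACAM5 read 8.36, 8.38 and 8.41 in mock and 8.28, 8.33 and 8.41 in NS siRNA and did not pass (-0.05), although its most variable probe set was higher (0.26). CEACAM1 did not pass either (0.10). These genes are alike in sequence, and whether a probe set also reads a relative was not tested. Of 14 lung and foregut genes 3 rose and 3 fell (median 0.063), with the transcription factor SOX9 at 0.52 and the surfactant lipid transporter ABCA3 at -0.39; 1 rose without mock replicate 3, without NS siRNA replicate 2 or with equal array medians. The lung regulator NKX2-1 (0.07) did not pass.

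SCD5 belongs to a list of 26 fatty acid genes, of which 9 fell and 2 rose (median -0.096). The desaturases FADS2 (-0.53) and FADS3 (-0.27, probe set mean -0.15), the elongases ELOVL5 (-0.34, probe set mean -0.10, which did not pass) and ELOVL2 (-0.31), and SREBF1, a regulator of lipid synthesis (-0.29, probe set mean -0.16), fell. TECR, which completes fatty acid elongation, fell on 1 of 2 probe sets (-0.88), with a mean over its probe sets of -0.42. ELOVL6, an elongase (0.41, probe set mean 0.27), and INSIG1, which retains the SREBP activator (0.39), rose. SCD, the other human stearoyl-CoA desaturase (-0.14), and the fatty acid synthase FASN (0.16) did not pass. The probe set mean of SCD did pass, lower in NS siRNA (-0.27). Of 21 cholesterol genes 7 rose and 5 fell (median -0.022); the sterol carriers STARD4 (-0.56) and NPC2 (-0.52) and the kinase PMVK (-0.46) fell, and the synthesis enzyme MSMO1 (0.37) rose.

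**Figure D4:**
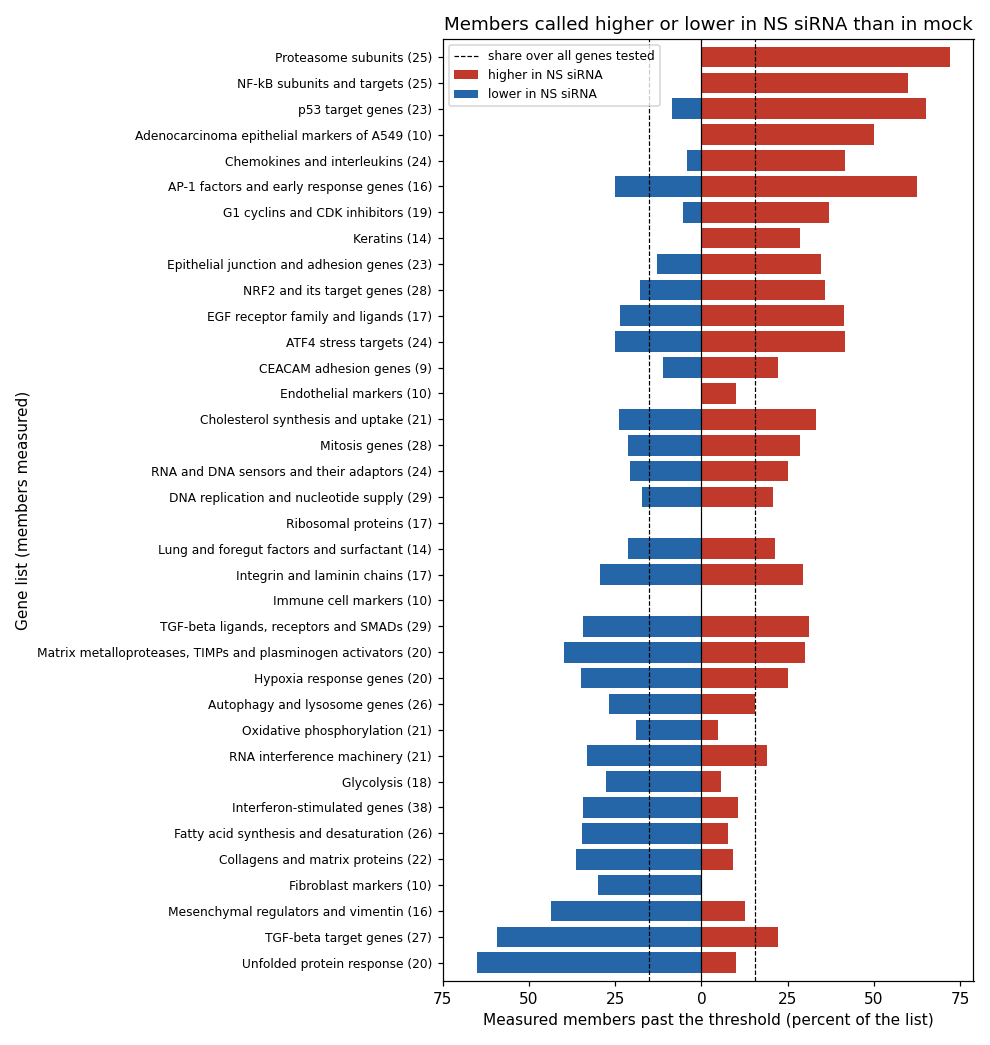
Percent of each list's measured members (number in brackets) called higher (right, red) or lower (left, blue) in NS siRNA than in mock; dashed lines mark the 15.6% and 15.2% of all genes. Proteasome, NF-kB and p53 genes stand at the top and TGF-beta targets and unfolded protein response genes at the bottom.

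The proteasome degrades ubiquitin-tagged proteins. Of 25 measured subunits 18 rose and 0 fell (median 0.222), and with equal array medians 16 rose and 2 fell. PSMB7, a catalytic subunit, read 12.85, 12.81 and 12.79 in mock and 13.27, 13.33 and 13.24 in NS siRNA (0.46 ± 0.06 SE, probe set mean 0.28, 1 of 2 probe sets). The regulatory particle subunits PSMD12 (0.58, probe set mean 0.26, 1 of 2 probe sets), PSMC6 (0.43) and PSMD4 (0.34) rose as well; the changes were small but shared by most of the complex.

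The unfolded protein response adjusts folding capacity in the endoplasmic reticulum. Of 20 measured genes 13 fell and 2 rose (median -0.287). EIF2AK3, the sensor kinase PERK, read 9.92, 9.98 and 10.04 in mock and 9.30, 9.31 and 9.29 in NS siRNA (-0.68 ± 0.05 SE, probe set mean -0.28, 1 of 2 probe sets). SEL1L, of the degradation complex (-0.67), the chaperone cofactor SDF2L1 (-0.60) and the sensor ERN1, or IRE1 (-0.55, probe set mean -0.08, which did not pass, 1 of 3 probe sets and 1 called higher), fell. The main chaperone HSPA5, or BiP, named here after its value was seen, did not pass (-0.06). Of 24 ATF4 stress targets 10 rose and 6 fell (median 0.033), with ATF3, the asparagine synthetase ASNS (0.62, probe set mean 0.41) and SESN2 (0.33) higher and the mTOR inhibitor DDIT4 (-0.65) and the cystine importer SLC7A11 (-0.61) lower.

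Of 26 autophagy and lysosome genes 4 rose and 7 fell, against 15.6% and 15.2% of all genes (median -0.072). WIPI1, which binds forming autophagosomes, read 8.14, 8.41 and 8.17 in mock and 6.58, 6.77 and 6.67 in NS siRNA (-1.57 ± 0.07 SE, 2 of 2 probe sets). MAP1LC3B, the LC3 protein of autophagosome membranes, read 11.76, 11.80 and 11.78 against 10.77, 10.77 and 10.76 (-1.01 ± 0.04 SE, probe set mean -0.63, 2 of 2 probe sets). Both lay lower on every NS siRNA array, and the lysosomal sialidase NEU1 fell too (-0.66).

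Of 17 measured ribosomal proteins 0 rose and 0 fell, with differences from -0.11 to 0.10. Of 18 glycolysis genes 1 rose and 5 fell (median -0.052), with the phosphofructokinases PFKM at -0.50 and PFKP at 0.28 and the glucose transporter SLC2A1 at -0.25. Of 21 oxidative phosphorylation genes 1 rose and 4 fell (median 0.005), and NDUFA9, a complex I subunit, fell most (-0.26). Of 20 hypoxia genes 5 rose and 7 fell (median 0.007). Adrenomedullin, ADM, read 10.45, 10.51 and 10.40 in mock and 11.49, 11.53 and 11.50 in NS siRNA (1.05 ± 0.05 SE), while the carbonic anhydrase CA12 (-0.84, 5 of 7 probe sets), the oxygen sensor EGLN1 (-0.59, 4 of 4 probe sets) and HIF1A itself (-0.50) fell. The hypoxia rises numbered 3 without mock replicate 1, NS siRNA replicate 1 or NS siRNA replicate 2, and with equal array medians.

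NRF2 and its antioxidant targets are the genes for which NS siRNA is the series' control. Of these 28 genes 10 rose and 5 fell between mock and NS siRNA (median 0.035). GCLC, the catalytic subunit of glutathione synthesis, read 12.25, 12.21 and 12.20 in mock and 12.72, 12.75 and 12.70 in NS siRNA (0.50 ± 0.05 SE, 3 of 3 probe sets). ABCC3, a conjugate exporter, read 12.32, 12.25 and 12.30 against 11.54, 11.53 and 11.54 (-0.76 ± 0.07 SE, probe set mean -0.42, 4 of 5 probe sets). Neither overlapped between the groups. The cytochrome CYP4F11 (0.48) and the sulfiredoxin SRXN1 (0.41) rose and SLC7A11 fell, while NQO1 (-0.05), HMOX1 (0.08), AKR1B10 (-0.04) and KEAP1, which marks NRF2 for degradation (0.00), did not pass. The 5 falls became 3 without mock replicate 1, without mock replicate 2 or without any 1 of the 3 NS siRNA replicates.

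Of the markers of other cell types, 3 of 10 fibroblast genes fell (COL1A1, COL3A1 and LUM). Of 10 immune markers 0 rose and 0 fell, and of 10 endothelial markers only TIE1, a receptor kinase below the array median in both groups, passed (0.25, probe set mean 0.12, which did not pass).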

How the data were processed

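Total RNA was extracted with TRIZOL and purified with an RNeasy kit, and biotin-labelled cRNA was hybridised, per the labels' protocols. The deposited values are log2 expression levels, the authors' RMA output per the submitters' processing notes, which give no version or options. RMA's normalization between arrays removes shifts common to all genes. Values ran from 3.60 to 15.06 over 54675 probe sets, and array medians from 7.51 to 7.57. Detection calls and scan dates were not used, so dim genes have no test against background and batches were not examined.

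The 62 control probe sets were left out. In the platform annotation 41091 probe sets carried exactly 1 gene, 1801 several and 11721 none; symbols were updated through Entrez identifiers to RefSeq (GRCh38.p14; 41037 matched, 54 kept). Each of 19775 genes was represented by its probe set of highest mean over the 9 arrays. limma 3.58.1 (R 4.3.3) fitted the 3 group means on all 9 arrays, with 6 residual and 6.12 prior degrees of freedom; p-values are two-sided and Benjamini-Hochberg adjusted over all 19775 genes. Single probe sets were fitted together in the same way. Folds are the log2 difference back-transformed, and SE is the model's. Figures were drawn with matplotlib 3.10.9 (Python 3.11.15). Tested on simulated arrays with 200 of 19775 genes changed in NS siRNA against mock, the fit recovered 98.5% of 2-fold, 89.6% of 1.41-fold and 45.5% of 1.19-fold changes, with 10 false calls.

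The comparison, gene lists and alternatives were chosen with earlier results of these data known. The genes named are CEACAM6, SCD5, TGFB1 and NFE2L2, the 15 largest called rises and falls without overlap, for every list at most 4 genes of lowest adjusted p, and any member of 14 lists whose members were all open to naming. Names outside this rule are marked in the text. Alternatives covered scaling between arrays, a filter on dim genes, the probe set chosen, the variance prior, the arrays fitted, a replicate block, each replicate left out and a threshold of 0.01.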

Additional observations from a re-analysis of the deposited data

Results flagged for a closer look

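Probe sets that the comparison of genes did not use also differed between NS siRNA and mock. Among the 11721 probe sets with no gene name here, 796 passed (6.79%, limma adjusted p below 0.05), and 25 of these reached 2-fold, with 10 of them up and 15 down in NS siRNA. Among the 1801 probe sets that carry several genes, 343 passed (19%), and 10 reached 2-fold, with 1 up and 9 down. No gene is named from them.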

How the results depend on the processing

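The 30 leading genes kept their direction and passed in every alternative run for them (largest adjusted p 2.06e-05, limma). With every single-gene probe set tested on its own, 10648 of 41091 passed, 5100 higher and 5548 lower, and 330 reached 2-fold, since more features were tested. Averaging the probe sets of each gene left 103 genes at 2-fold or more. Of the genes named above as not passing, SCD (-0.27), RIGI (0.15), AGO3 (-0.16), AGO4 (0.13) and CEACAM1 (0.13) passed with that average. At a threshold of 0.01, 1932 genes were higher. Leaving out 1 replicate at a time gave 5069 to 5473 called genes, 2424 to 2775 higher and 2490 to 2811 lower. The share of called genes that were higher was 50.7%, 42.5% with equal array medians and 55% with quantile normalization. The most variable probe set turned the sign of ATP5PO (0.26), ENG (0.19), CEACAM5 (0.26), ACACA (0.51), XPO5 (0.15), RAN (-0.41), POLH (-0.25) and ERBB3 (-0.26), and the mean of the probe sets that of ACACA (0.23) and RAN (-0.18); the cause was not tested. With eBayes trend and robust settings 9 glycolysis and 7 oxidative phosphorylation genes fell, and with the mean of the probe sets 2 EGF family genes fell. List counts of 1 or 2 members, such as the endothelial rise, were lost or gained when some single replicates were left out. With the replicate number as a block 6366 genes passed (3283 higher, 3083 lower). Deviations of same-numbered mock and NS siRNA arrays correlated at -0.07, 0.09 and 0.22, and those of differently numbered arrays at -0.24 to 0.18. With 3 arrays per group, these values cannot decide whether same-numbered samples shared a culture or day. Depth is not defined for arrays: 8.63% of the 6388 genes below the array median in both groups passed, and 41% of the 12942 above it in both.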

Other observations

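Some replicate arrays held nearly the same value for a gene. In 201 of 19775 genes the 3 mock arrays lay within 0.001 of each other (log2), and in 84 genes the 3 NS siRNA arrays did. Of the 284 genes so tied in either group 25.7% passed (limma adjusted p below 0.05), against 30.8% of the others. For such genes the SD between replicates is near 0, while the model's SE also draws on the other genes.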
